A study of Mus musculus with 6 samples.

Results

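The 36 genes described here encode factors that make ribosomes: the enzyme and factors that transcribe ribosomal RNA (rRNA), the proteins of the small nucleolar ribonucleoproteins (snoRNPs) that modify it, nucleolar proteins, and the assembly factors of the small and large subunits. They were listed by symbol and not picked by their measured values, but the list was made with earlier results of these data known. Each was represented by the brightest of its probes, out of 20284 genes with a named probe. All 36 had a probe, and all 36 were well above background on all 6 arrays, so none was lost to the filter on dim probes.

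Ribosomes are built in the nucleolus. RNA polymerase I (Pol I) copies the rRNA genes into a long precursor, which box C/D snoRNPs methylate and box H/ACA snoRNPs pseudouridylate at guided positions, while assembly factors fold it, cut it and load it with ribosomal proteins. The genes of these factors are textbook targets of the transcription factor MYC, and blood stem cells are known for low and tightly held rates of protein synthesis.

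The study measured gene expression in mouse KSL cells (positive for c-Kit and Sca1, negative for lineage markers), the bone marrow or fetal liver fraction that holds the blood stem cells. The knockout (KO) removes Tif1b, listed in the reference as Trim28, a corepressor of chromatin. Fetal liver gave 1 wild-type (WT) sample, labelled Tie2-Cre with Tif1bw/w, and 1 KO sample, labelled Tie2-Cre with Tif1bf/f. Adult bone marrow gave 2 WT samples labelled CreERT with the w/w allele pair and 2 KO samples labelled CreERT with f/f, all on a C57BL6 background. The WT samples therefore carry the same Cre as the KO samples of their tissue. Tie2-Cre is active in endothelium and blood, and CreERT is a drug-inducible Cre. Doses, ages and numbers of animals are not given in the sources used here. For bone marrow replicate 2 the allele is spelled Tif2b in the labels and was taken as Tif1b. Since no label ties the replicates to separate animals, p-values here reflect the spread between 2 samples of a group, and that spread may be technical.

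Each of the 3 slides held 1 WT and 1 KO array of 1 tissue, so a slide is also a pair of arrays: slide 1 fetal liver, slide 2 bone marrow replicate 1 and slide 3 bone marrow replicate 2. A level is log2 of the processed signal minus the 75th percentile of that array, so a level of 0 equals that percentile. A difference of -1 is 2-fold lower. Levels of different genes come from different probes and are not set against each other. Trim28 stood at 5.97 and 1.68 on the fetal liver WT and KO arrays and at 5.55 and 0.75 in pair 2 of bone marrow. Where that probe lies relative to the deleted part is not known here. Kit, a gate gene, lay between 4.17 and 4.50 on those 4 arrays and at 4.31 in bone marrow KO replicate 1. Ly6a, the gene of Sca1, lay at 0.31 and 0.77 in fetal liver and at 3.60 to 6.04 on the bone marrow KO arrays.

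The array labelled bone marrow WT replicate 1 stood apart. Its scanner file and its column in the authors' value table differ, although for the other 5 arrays the table is the scanner signal divided by a constant. In the scanner file Kit was 1.30, Trim28 2.45 and the summed level of 10 B lymphoid markers 8.80, against 3.90 to 5.45 on the other arrays. In the table column Kit was 4.16, Trim28 5.18 and the B lymphoid sum 4.65. The description label of this sample names an Hp1a knockdown and that of bone marrow KO replicate 1 an Hp1g knockdown, while their other labels give the groups above. The tests and counts of the 36 genes that rest on this array are therefore given from both sources. Single levels are given from the table where marked, and the scanner values of the other lists are given beside theirs. Pair 1 means bone marrow KO replicate 1 against either version of this array, and pair 2 means replicate 2, whose values are the same in both sources to within 0.01.

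The E-box CACGTG, the sequence that MYC with its partner MAX binds best and that reads the same on both strands, was looked for in the RefSeq promoter windows of the members (250 bases before to 50 after the start, build GRCm38.p6). Windows were matched for 31 members, and Npm1, Fbl, Bop1, Rrp12 and Rrs1 had none in the table. The E-box was found in 7 of the 31 (22.6%), in 21 of 107 other ribosome biogenesis genes (19.6%), in 6 of 62 cytosolic ribosomal protein genes (9.68%) and in 2187 of all 27025 genes in the table (8.09%). A match is a description of the letters and not of binding. The windows of Nop2 and Rrn3 are printed because both hold the motif before the start and because Nop2 followed the common direction in KO cells while Rrn3 did not. The sequences run 5′ to 3′ with the motif in capitals and cover the 250 bases before the start. Both genes lie on the plus strand, Nop2 at chr6:125131633-125131882 and Rrn3 at chr16:13780449-13780698.
Nop2: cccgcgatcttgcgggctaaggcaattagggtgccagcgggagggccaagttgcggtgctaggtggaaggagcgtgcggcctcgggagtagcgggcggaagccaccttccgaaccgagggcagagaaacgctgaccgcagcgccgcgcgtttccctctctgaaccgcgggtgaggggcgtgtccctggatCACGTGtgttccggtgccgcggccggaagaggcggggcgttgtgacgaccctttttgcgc
Rrn3: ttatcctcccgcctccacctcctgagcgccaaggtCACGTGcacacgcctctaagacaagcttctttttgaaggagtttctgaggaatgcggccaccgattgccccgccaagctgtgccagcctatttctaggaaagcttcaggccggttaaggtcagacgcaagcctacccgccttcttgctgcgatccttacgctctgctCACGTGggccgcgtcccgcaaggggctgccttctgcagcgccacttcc

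In Nop2 the motif begins 60 bases before the start, and in Rrn3 it begins 48 and 215 bases before it. In the other 5 members it lies just after the start, shown here as the 30 bases around it. These are Mybbp1a (chr11:72441347-72441376, plus strand), Pes1 (chr11:3963965-3963994, plus), Tsr1 (chr11:74898092-74898121, plus), Utp20 (chr10:88826765-88826794, minus) and Wdr43 (chr17:71616220-71616249, plus).
Mybbp1a: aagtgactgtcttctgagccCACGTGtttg
Pes1: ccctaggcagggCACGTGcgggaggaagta
Tsr1: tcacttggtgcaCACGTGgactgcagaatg
Utp20: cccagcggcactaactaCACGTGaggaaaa
Wdr43: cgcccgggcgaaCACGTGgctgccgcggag

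The KO arrays held lower levels of nearly the whole list in 3 pairs of arrays. In fetal liver 34 of the 36 members were lower in KO, with a median difference of -0.31, where 57.8% of the 12701 genes compared were below 0 and their median was -0.07. In bone marrow pair 2, 35 of 36 were lower, with a median of -0.68, against 60.2% of all genes and a median of -0.09. From the value table, bone marrow pair 1 had 33 of 36 lower, with a median of -0.25, against 48.8% of all genes and a median of 0.01. The differences were small: 1 member was at least 2-fold lower in fetal liver, where 4.42% of all genes were. In bulk samples, fewer cells of a type and less RNA per cell cannot be told apart. Fetal liver has 1 array per genotype, so its differences have no replicate check and no test.

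**Figure D1:**
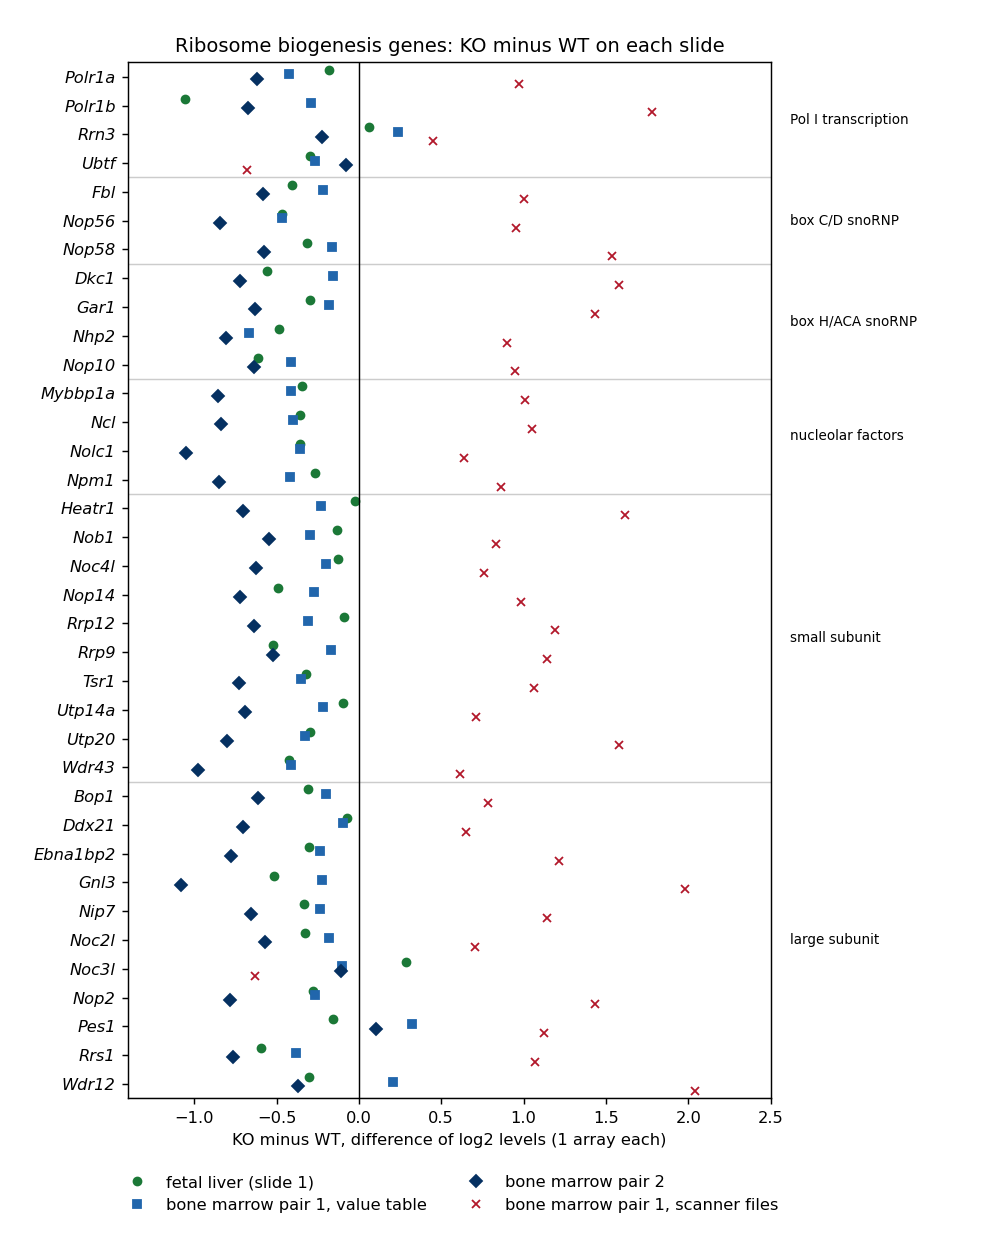
KO minus WT difference of log2 levels (x axis) for each of the 36 genes (y axis, ordered by role), 1 point per pair of arrays. Circles (fetal liver), squares (bone marrow pair 1, value table) and diamonds (bone marrow pair 2) lie below 0 for 34, 33 and 35 of the 36 genes, while the crosses (pair 1 from the scanner files) lie above 0 for 34.

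A total of 32 of the 36 (88.9%) were below 0 in fetal liver and in both bone marrow pairs of the value table, against 27.8% of 11985 genes. The 4 exceptions were Pes1, Wdr12, Rrn3 and Noc3l. In bone marrow 23 of 36 (63.9%) had both KO arrays below both WT arrays in the value table, where 19.6% of all genes did. The scanner files gave 0 of 36 by that measure, where 13.1% of all genes did. The table difference was lower in pair 2 than in pair 1 for 35 of 36, Ubtf being the exception, and for Pes1 it was above 0 in both. The fetal liver and pair 2 differences share no array, and across the 36 members they had a Pearson correlation of 0.42 and a Spearman correlation of 0.38.

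The bone marrow test did not call any of these genes in the value table. By limma 0 of the 36 passed an adjusted p of 0.05, where 0.876% of the 12783 genes tested did, and 0 of 36 had an unadjusted p under 0.05, where 11% of all genes did. The median of the members was -0.47 and 34 were below 0, against -0.05 and 55.8% for all genes, and the lowest adjusted p (limma) was 0.516, for Rrs1. The SE of a member ranged from 0.25 to 0.45, with a median of 0.32, over 2 arrays per genotype. With the slide as a block, 17 of 36 (47.2%) had an unadjusted p under 0.05, against 23.9% of all genes. Still 0 of 36 passed after adjustment in that fit, where 7.67% of all genes did, and the lowest adjusted p (limma) was 0.0678, for Nhp2.

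The 4 genes of Pol I transcription differed among themselves. Polr1b, a large subunit of the polymerase core, stood at 2.84 in fetal liver WT and 1.78 in KO. In bone marrow its levels were 2.38 (table) and 2.73 in WT and 2.09 and 2.06 in KO, so both KO arrays lay below both WT arrays. Its fetal liver difference of -1.06 was the only one of the 36 at 2-fold or more. Polr1a, which encodes the other large subunit of the core, differed by -0.18 in fetal liver, -0.42 in pair 1 of the table and -0.62 in pair 2. Rrn3, the factor that brings Pol I to the promoter, had levels of 4.01 and 4.07 in fetal liver WT and KO, 3.48 (table) and 3.61 in bone marrow WT and 3.72 and 3.39 in bone marrow KO. Its groups overlapped in bone marrow, with a difference of 0.01 ± 0.26 (SE, n = 2 and 2). Ubtf, the factor that binds along the rRNA gene, differed by -0.30, -0.27 and -0.08 in the same 3 pairs.

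All 3 core proteins of the box C/D snoRNP were lower in each of the 3 pairs. Fibrillarin (Fbl), the methyltransferase of the particle, stood at 6.60 in fetal liver WT and 6.19 in KO, and in bone marrow at 6.01 (table) and 5.68 in WT and 5.79 and 5.10 in KO. The KO array of pair 1 lay above the WT array of pair 2, so the bone marrow groups overlapped across slides, and the order held only within each slide. Nop56, a scaffold protein of the particle, stood at 7.07 and 6.60 in fetal liver, 6.26 (table) and 5.97 in bone marrow WT and 5.79 and 5.12 in KO, with no overlap. Its bone marrow difference was -0.66 ± 0.33 (SE, n = 2 and 2, adjusted p = 0.594 in limma). Nop58, the partner scaffold, differed by -0.32, -0.16 and -0.58.

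The 4 core proteins of the box H/ACA snoRNP were likewise lower in each pair, with medians of -0.52 in fetal liver, -0.30 in pair 1 of the table and -0.68 in pair 2. Dyskerin (Dkc1), the pseudouridine synthase, stood at 1.25 and 0.70 in fetal liver WT and KO, at 2.04 (table) and 2.33 in bone marrow WT and at 1.88 and 1.61 in bone marrow KO. Both KO arrays were below both WT arrays, and all 4 lay above the fetal liver arrays. Nhp2 had the most negative bone marrow difference of the list, -0.74 ± 0.38 (SE, n = 2 and 2), from 7.82 (table) and 7.21 in WT and 7.16 and 6.40 in KO. Its fetal liver levels were 8.16 and 7.68. Nop10 was 7.20 in fetal liver WT and 6.58 in KO, and 6.36 (table), 5.60, 5.95 and 4.97 in bone marrow WT replicates 1 and 2 and KO replicates 1 and 2. KO replicate 1 lay above WT replicate 2 for Nop10, so those groups overlapped. Gar1, the remaining core protein, differed by -0.30, -0.18 and -0.63.

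**Figure D2:**
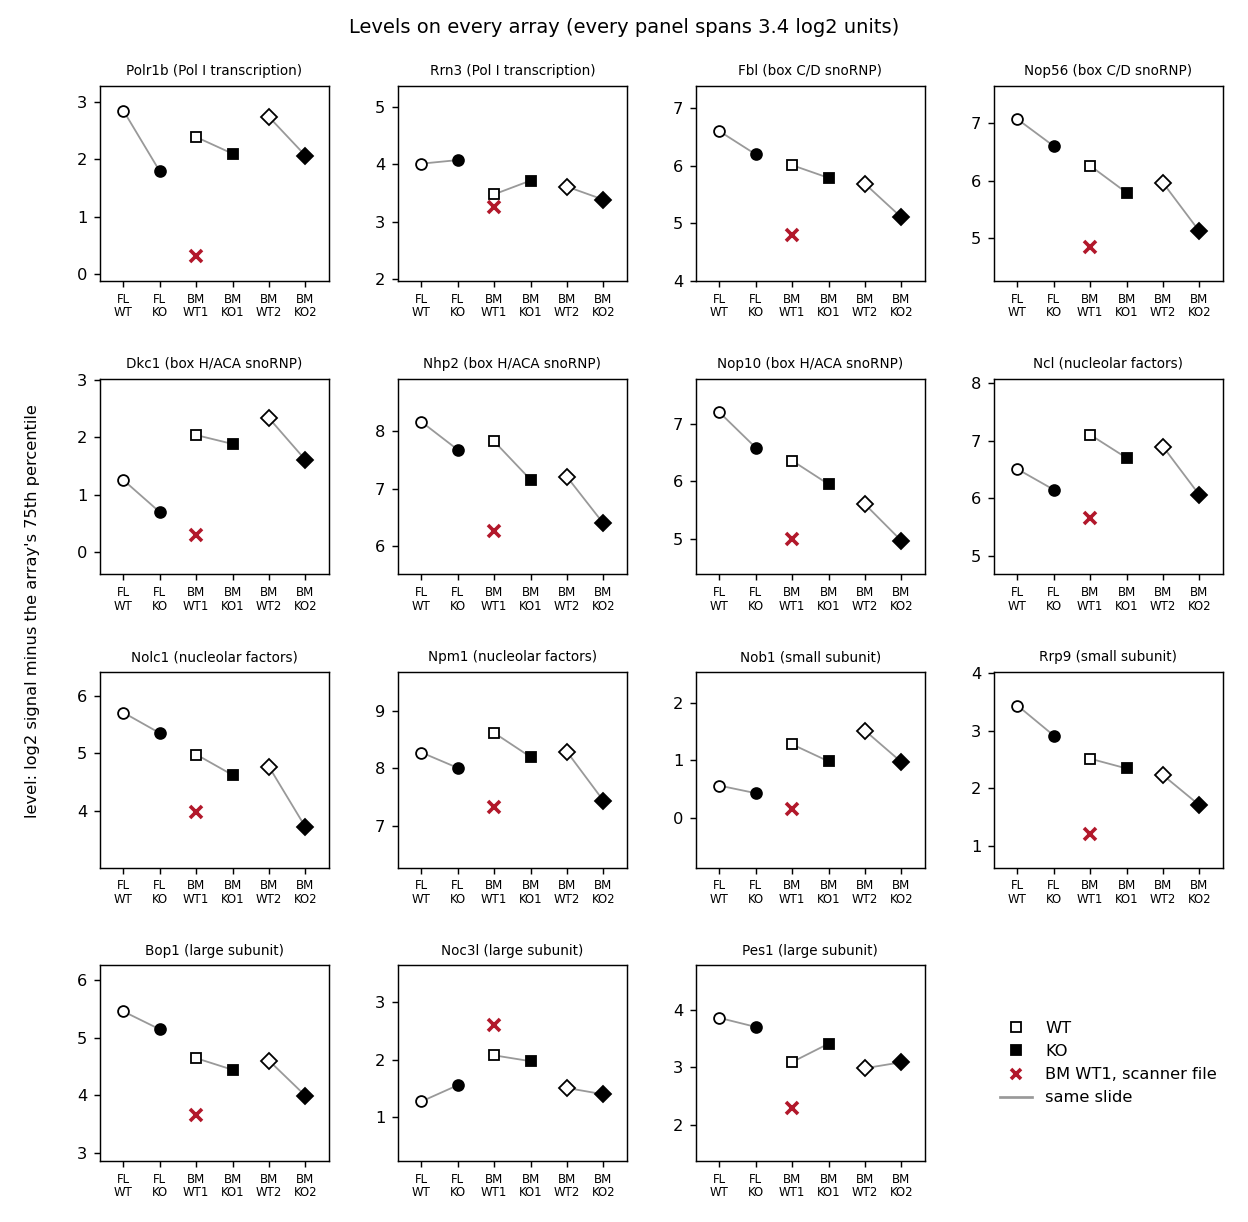
Level (log2 signal minus the array's 75th percentile, y axis, 3.4 units in every panel) of 15 of the 36 genes on every array (x axis: FL fetal liver, BM bone marrow). Open symbols are WT, filled symbols KO, grey lines join arrays of 1 slide, and the cross is the scanner version of bone marrow WT replicate 1, which for Polr1b lies at 0.32 where the table column gives 2.38.

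The 4 nucleolar proteins were lower in KO in fetal liver, in pair 2 and in pair 1 of the table. Nucleolin (Ncl), an abundant RNA-binding protein of the nucleolus, stood at 6.51 and 6.15 in fetal liver, at 7.11 (table) and 6.90 in bone marrow WT and at 6.70 and 6.06 in bone marrow KO. Nucleophosmin (Npm1), a nucleolar chaperone, stood at 8.27 and 8.003 in fetal liver, at 8.61 (table) and 8.28 in bone marrow WT and at 8.19 and 7.43 in KO. For both genes the KO arrays lay below the WT arrays of their tissue. Nolc1, a chaperone of snoRNPs, stood at 5.71 and 5.35 in fetal liver and at 4.98 (table) and 4.76 in bone marrow WT. At 4.62 and 3.72 its KO arrays were both lower, and the pair 2 difference of -1.05 was past 2-fold, as it was for 2 members and for 4.02% of all genes. The bone marrow differences of the 4, Mybbp1a included, lay between -0.62 and -0.70.

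All 10 small-subunit factors were below 0 in each of the 3 pairs, with medians of -0.21, -0.29 and -0.70. Nob1, the nuclease that makes the final cut of small-subunit rRNA, stood at 0.56 and 0.43 in fetal liver, at 1.28 (table) and 1.52 in bone marrow WT and at 0.98 and 0.97 in bone marrow KO. The bone marrow groups did not overlap, and the difference was -0.42 ± 0.25 (SE, n = 2 and 2, adjusted p = 0.703 in limma). Rrp9, a protein of the snoRNP that guides early cleavage, stood at 3.44 and 2.92 in fetal liver, 2.52 (table) and 2.23 in bone marrow WT and 2.35 and 1.71 in KO. Its bone marrow groups overlapped. Wdr43, a subunit of the complex that binds the early precursor, had the most negative difference of these factors in bone marrow, -0.69 ± 0.44 (SE, n = 2 and 2). The others (Heatr1, Utp20, Utp14a, Nop14, Noc4l, Rrp12 and Tsr1) lay between -0.41 and -0.56 there.

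The 11 large-subunit factors held most of the exceptions. Pes1, which with Bop1 and Wdr12 forms the complex needed for processing of large-subunit rRNA, stood at 3.86 in fetal liver WT and 3.70 in KO. In bone marrow its levels were 3.09 (table) and 2.98 in WT and 3.41 and 3.09 in KO, a difference of 0.21 ± 0.26 (SE, n = 2 and 2). A dimmer Pes1 probe gave -0.26 in pair 1 of the table and -0.67 in pair 2, so the direction of Pes1 in bone marrow depends on the probe. Bop1 stood at 5.45 and 5.14 in fetal liver, at 4.64 (table) and 4.60 in bone marrow WT and at 4.44 and 3.99 in KO, with no overlap. Wdr12 differed by -0.30 in fetal liver, 0.21 in pair 1 of the table and -0.37 in pair 2. The 3 members of this complex thus had different signs in pair 1.

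Noc3l, which acts in early large-subunit assembly, was the member with the largest positive difference in fetal liver, from 1.28 in WT to 1.56 in KO. In bone marrow it stood at 2.08 (table) and 1.51 in WT and 1.98 and 1.40 in KO, and these groups overlapped. Gnl3 (nucleostemin), a nucleolar GTPase known from stem cells, had the most negative pair 2 difference, -1.08, from 3.06 to 1.98. In fetal liver it went from 2.47 to 1.95, and in pair 1 of the table from 2.77 to 2.54. The others (Nop2, Nip7, Noc2l, Ebna1bp2, Rrs1 and the helicase Ddx21) were below 0 in each of these pairs, with bone marrow differences between -0.38 and -0.57.

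A total of 12 members had more than 1 probe, 27 probes in all. In fetal liver the probes of all 12 had the same sign. In pair 1 of the table they had opposite signs for Pes1 and Ubtf, and in pair 2 for Pes1. Between the tissues, in the scanner files, the signs were the same for 11 of the 12, all but Ncl. The size of that difference depended on the probe. The brightest and a dimmer probe gave -1.26 and -0.08 for Nolc1, and -0.85 and -0.06 for Wdr43. For Tsr1 they gave -0.48 and -0.50, and for Ubtf the dimmer probe was further from 0 (-0.26 and -0.88).

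The scanner files gave the opposite picture in pair 1. There 34 of 36 members were higher in KO, all but Ubtf and Noc3l, with a median of 1.00, where 60.2% of all genes were higher and their median was 0.22. A total of 18 members (50%) were at least 2-fold higher, where 17.5% of all genes were. A total of 33 of 36 (91.7%) were above 0 in pair 1 and below 0 in pair 2, as 37.5% of all genes were. For 30 of the 36 the scanner version of bone marrow WT replicate 1 had the lowest level of all 6 arrays, where 32.7% of all genes did. For 34 of 36 it lay below the table column of the same sample, as for 60.7% of all genes, with a median difference of -1.39 against -0.23 over all genes. Over both pairs the scanner files gave a bone marrow median of 0.15, with 5 of 36 below 0, where 44% of all genes were. By limma 0 of 13011 genes (0%) and 0 of 36 members passed there, with 548 genes (4.21%) and 0 members at an unadjusted p under 0.05. With the slide as a block the scanner files called 0 genes too. Without bone marrow WT replicate 1 the median was -0.42 and without WT replicate 2 it was 0.71. Without KO replicate 1 it was -0.11 and without KO replicate 2 it was 0.41. The direction in the scanner files thus depends on which arrays are used.

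Other genes of the same pathway, listed by name, were also mostly lower in KO in fetal liver, in pair 2 and in pair 1 of the table. Of the other ribosome biogenesis genes 115 of 126 were below 0 in fetal liver (median -0.26), 106 of 127 in pair 1 of the table (-0.15) and 127 of 128 in pair 2 (-0.51). In bone marrow, by the table, 124 of 127 were below 0, with a median of -0.32, and 0 passed in either direction by limma. From the scanner files pair 1 was the other way, with 117 of 128 above 0 (median 0.68), and over both pairs 41 of 128 were below 0 (median 0.11). In the table all 48 other large-subunit factors were below 0 in bone marrow, with a median of -0.40, from -0.01 for Pak1ip1 to -0.81 for Ppan, a large-subunit assembly factor. Of the 44 other small-subunit factors 43 were below 0, with Imp4, a protein of the early small-subunit precursor, at -0.84. Imp4 also had the most negative difference of these genes in fetal liver, -1.35.

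Cytosolic ribosomal proteins, the protein parts of the ribosome itself, differed less by median than the 36 genes in fetal liver and pair 2. In pair 2 the medians were -0.16 for these proteins and -0.68 for the 36 genes. In pair 1 of the table these proteins did not differ less. Their median there was -0.27, with 78 of 79 below 0, and that of the 36 genes was -0.25. A total of 78 of 79 were below 0 in fetal liver with a median of -0.16, and 77 of 79 in bone marrow by the table with a median of -0.22. The exception in fetal liver, Rpl39l, a paralogue known from testis, was 4.15 higher in KO. Mitochondrial ribosomal proteins were below 0 for 74 of 77 in fetal liver (median -0.32) and 71 of 77 in bone marrow (-0.26). S phase genes, 30 in number, had medians of -0.10 in fetal liver, 0.10 in pair 1 of the table and -0.29 in pair 2, so in pair 1 they did not share the direction of the ribosome genes. In pair 1 of the scanner files the medians were 0.12 for cytosolic and 0.65 for mitochondrial ribosomal proteins and 0.76 for S phase genes, with 57 of 79, 76 of 77 and 29 of 30 above 0. No test of the difference between lists was made.

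**Figure D3:**
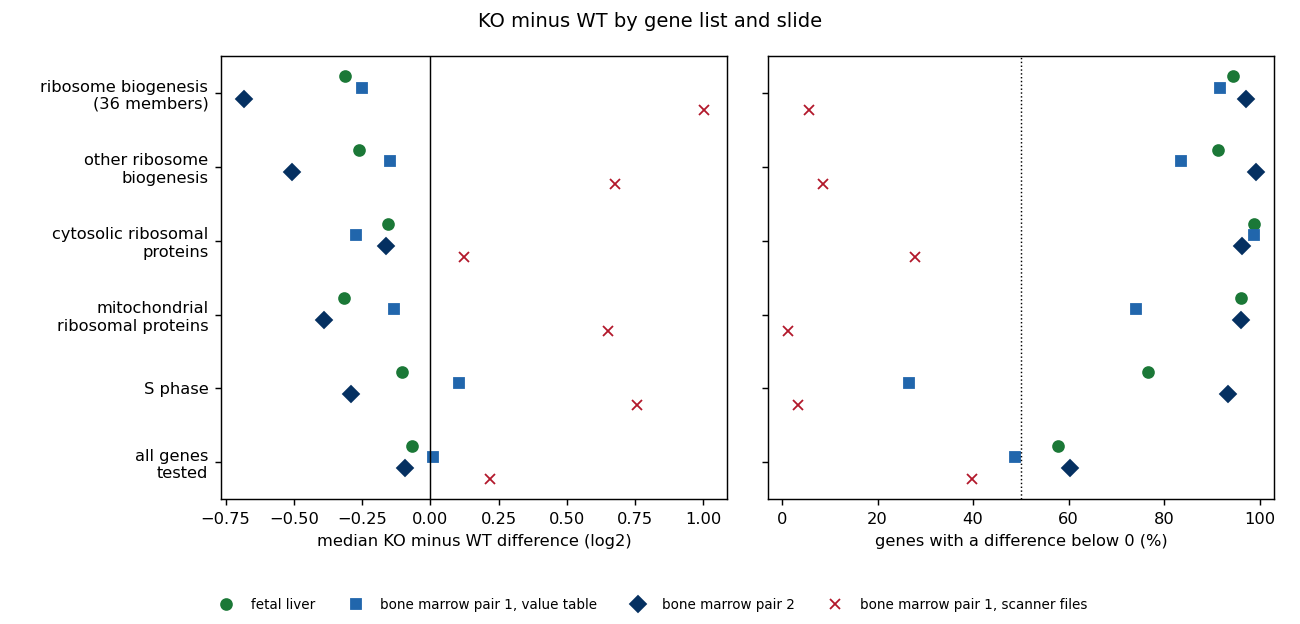
Median KO minus WT difference (left, log2) and percentage of genes below 0 (right) for the 36 genes, 4 other gene lists and all genes tested, by pair of arrays. The 36 genes sit at -0.31 (fetal liver), -0.25 (pair 1, value table), -0.68 (pair 2) and 1.00 (pair 1, scanner files), and all genes tested at -0.07, 0.01, -0.09 and 0.22.

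Myc, the gene of the transcription factor MYC, stood at 3.71 in fetal liver WT and 2.39 in KO. In bone marrow Myc was 4.07 (table) and 4.08 in WT and 2.20 and 1.68 in KO, with no overlap. The bone marrow difference was -2.13 ± 0.29 (SE, n = 2 and 2), with an adjusted p of 0.0504 in limma and 0.00833 with the slide as a block. The scanner file put Myc in bone marrow WT replicate 1 at 1.84, below KO replicate 1. Mycn, the gene of the related factor N-MYC, stood at 3.46 and 3.45 in fetal liver, 0.96 (table) and 1.84 in bone marrow WT and 3.16 and 3.50 in KO. Its bone marrow difference was 1.93 ± 0.37 (SE, n = 2 and 2), with an adjusted p of 0.115 in limma and 0.0103 with the slide as a block. The scanner file put Mycn in bone marrow WT replicate 1 at -0.92, also below both KO arrays. The fetal liver KO array thus had a lower Myc level and the same Mycn level as its WT array, and in the table the bone marrow KO arrays had a lower Myc and a higher Mycn level. In fetal liver and, by the table, in bone marrow most of the 36 genes lay lower in KO. By the scanner files 31 of the 36 lay higher in KO in bone marrow. Whether Myc or Mycn had a part in these levels was not tested.

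Marker lists of mature cells also differed between WT and KO bone marrow in the value table, and their part in the result was not tested. The summed level of 10 neutrophil markers was 11.16 and 10.21 in WT and 8.72 and 5.74 in KO, with 9 or 10 of the markers above background on every bone marrow array. That of 9 monocyte and dendritic markers was 7.32 and 6.31 in WT and 4.84 and 4.08 in KO, with all 9 above background on each. The sums of 10 megakaryocyte markers, all above background, were 7.08 and 6.93 in WT and 7.99 and 8.16 in KO. Erythroid markers summed to 3.43 and 3.47 in WT, with 7 of 9 above background, and to 8.53 and 4.79 in KO, with 9 and 8 of 9. The 6 mast cell markers summed to 5.32 and 5.37 in WT, with 5 and 6 above background, and to 7.18 and 6.56 in KO, with 6 above. In the scanner file of bone marrow WT replicate 1 these sums were 10.73 for neutrophil, 9.45 for monocyte and dendritic, -0.48 for megakaryocyte (4 of 10 above background), 10.76 for erythroid and 3.68 for mast cell markers, so with that version the erythroid sums of WT and KO overlapped.

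In fetal liver some marker lists also differed between WT and KO, and their part in the lower levels of the members was not tested. Of the 7 hepatocyte markers compared all 7 were lower in KO, 6 of them at least 2-fold, with a median difference of -1.77, and 7 of 8 were above background in WT and 4 in KO. Of 7 B lymphoid markers 6 were lower, 5 of them at least 2-fold, with a median of -3.01, and 7 of 10 were above background in WT and 3 in KO. By summed level these 2 lists differed less, with 5.35 in WT and 4.74 in KO for the 8 hepatocyte markers and 5.45 and 5.05 for the 10 B lymphoid markers. The sums were 11.87 in WT and 11.70 in KO for neutrophil markers, 6.99 and 6.73 for monocyte and dendritic markers, 5.41 and 5.19 for megakaryocyte markers and 9.39 and 10.12 for erythroid markers. Within these lists the markers went both ways. Higher in KO were 5 of 10 neutrophil, 4 of 9 monocyte and dendritic, 3 of 10 megakaryocyte and 5 of 9 erythroid markers. Of the neutrophil markers 3 were at least 2-fold higher and 3 at least 2-fold lower.

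Whether the KO difference of a member differed between the tissues was tested as an interaction. In it the lone fetal liver arrays are assumed to vary like the bone marrow arrays. Slide and Cre go with tissue, so the interaction cannot tell these apart. By limma 0 of 36 members and 0 of the 13499 genes (0%) passed in the value table, where 7.04% of all genes and 0 members had an unadjusted p under 0.05. In the scanner files 0 of 13661 genes (0%) passed, with 2.57% of all genes and 0 members at an unadjusted p under 0.05. The lowest unadjusted interaction p of a member was 0.263 in the table, for Polr1b, with an adjusted p of 1 in limma. The SE of this contrast ranged from 0.43 to 0.79 in the table.

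Bone marrow and fetal liver were then compared with genotype in the model. The tissues also differ in slide and in Cre (Tie2-Cre in fetal liver, CreERT in bone marrow). Tissue, slide and Cre cannot be told apart here. The members lay lower in bone marrow on balance, as most genes did under this scaling. In the scanner files 31 of 36 were below 0 with a median of -0.67, where 64.7% of the 13661 genes were below 0 with a median of -0.30. In the value table, 25 of 36 were below 0 with a median of -0.40, where 63.2% of the 13499 genes were below 0 with a median of -0.26. Scaling arrays to their medians moved the median of all genes to -0.11 and -0.01 in the 2 sources and that of the members to -0.48 and -0.16, so relative to all genes the members' median stayed lower. All 4 bone marrow arrays lay below both fetal liver arrays for 18 of 36 (50%) in the scanner files, where 33.7% of all genes did, and for 16 of 36 (44.4%) in the table, where 36.8% did.

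**Figure D4:**
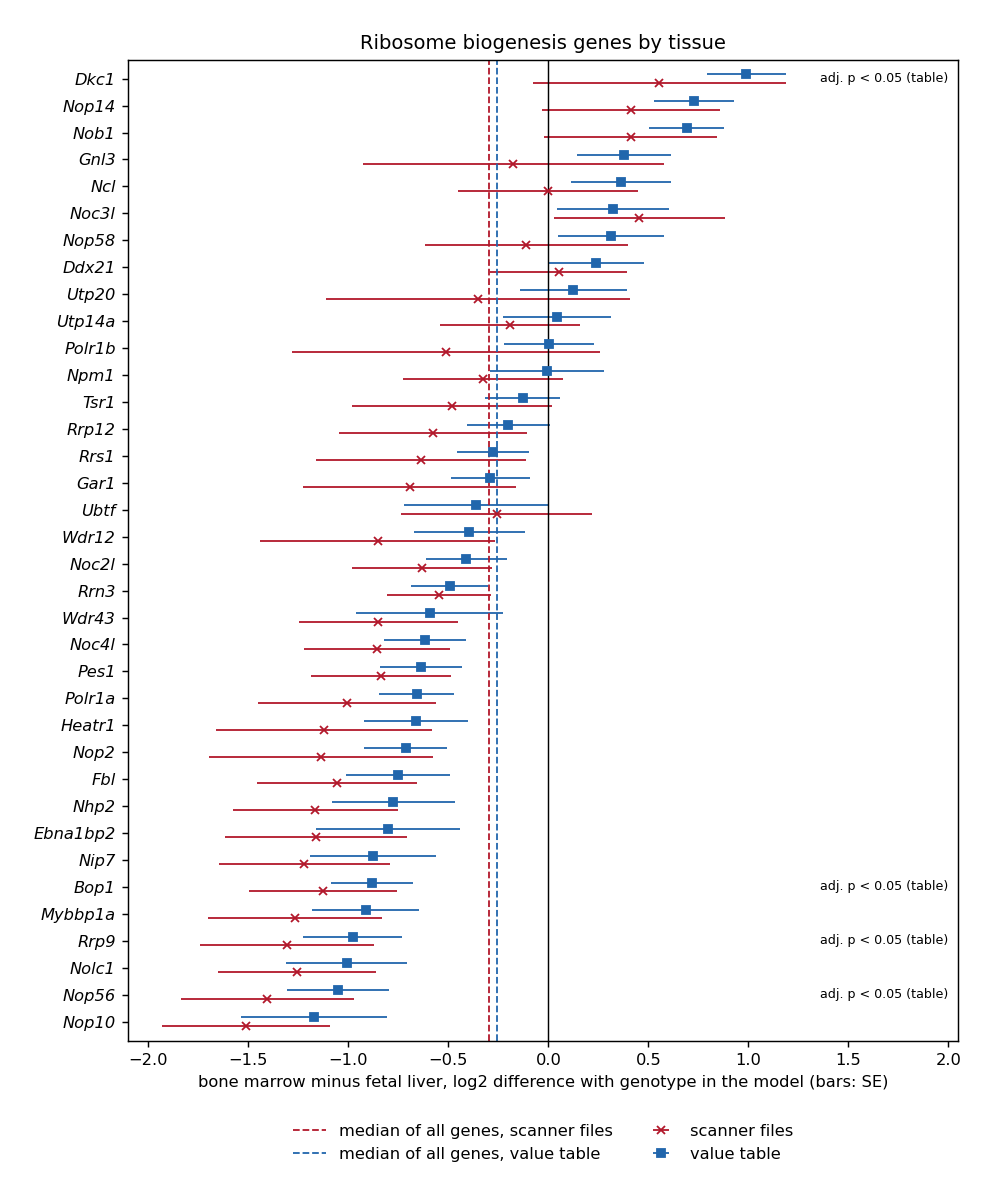
Bone marrow minus fetal liver difference (x axis, log2, with genotype in the model, bars are SE) of the 36 genes (y axis, ordered by the value table), from the scanner files (crosses) and the value table (squares). The genes run from Nop10 at -1.17 to Dkc1 at 0.99 in the table, and the dashed lines mark the medians of all genes at -0.30 and -0.26.

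In the table, 4 of 36 members passed by limma (11.1%), fewer in share than the 22.9% of all genes. Nop56 was lower in bone marrow (difference -1.05 ± 0.26 SE, adjusted p = 0.0398 in limma), from 7.07 and 6.60 in fetal liver to between 5.12 and 6.26. In the scanner files its brightest probe gave -1.41 and a dimmer probe -0.57. Bop1 was lower with a difference of -0.88 ± 0.20 (SE, adjusted p = 0.0355 in limma), and Rrp9 with -0.98 ± 0.25 (SE, adjusted p = 0.0442 in limma). Dkc1 was the only member that passed in the other direction, at 0.99 ± 0.20 (SE, adjusted p = 0.0248 in limma). All 4 genes had every bone marrow array of the table on the same side of both fetal liver arrays. With the slide as a random block 0 of the 4 passed, with adjusted p between 0.0952 and 0.11 in limma, where 6.11% of all genes passed. Leaving out any bone marrow array left 0 or 1 of the 36, with the share over all genes not given here. The direction of the calls depended on the scaling: scaled to array medians the table gave Dkc1 and Nob1, both higher, and quantile scaling gave 5 higher (Dkc1, Ncl, Nob1, Nop14 and Nop58) and 1 lower (Rrp9). Of all 13499 genes, 1400 were called higher and 844 lower with median scaling, and 1579 and 1347 with quantile scaling. Calls of members in these settings are to be read beside those counts. Over all genes the lower share of the calls was 61% with the 75th percentile, 37.6% with the median and 46% with quantile scaling. In the scanner files 0 of 36 passed, where 2.1% of all genes did, and 10 members had an unadjusted p under 0.05 (27.8%, against 27% of all genes).

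Members of a single particle lay on opposite sides. In the box H/ACA snoRNP, Nop10 differed by -1.17 ± 0.36 (SE, adjusted p = 0.0681 in limma) and Nhp2 by -0.77 ± 0.31 (SE, adjusted p = 0.117 in limma) in the table, while Dkc1 was higher in bone marrow. The scanner file of bone marrow WT replicate 1 put Dkc1 at 0.30, below both fetal liver arrays, and there the difference was 0.55 ± 0.63 (SE). Besides Dkc1, Nob1 (0.69 ± 0.19 SE, adjusted p = 0.0507 in limma) and Nop14 (0.73 ± 0.20 SE, adjusted p = 0.0531 in limma) had all 4 bone marrow arrays of the table above both fetal liver arrays. Nop14 acts in small-subunit assembly, as Nob1 does. Dkc1, Nob1, Nop14, Nop10 and Nhp2 had 1 probe each, so their tissue differences could not be checked with a second probe. In fetal liver WT the probes of Dkc1, Nob1 and Nop14 read 1.25, 0.56 and 0.75, and those of Nop10 and Nhp2 read 7.20 and 8.16. The part of probe brightness in these differences was not tested. Ncl was 0.36 ± 0.25 (SE) in the table and 0.00 ± 0.45 (SE) in the scanner files, and Npm1 -0.01 ± 0.28 (SE) and -0.33 ± 0.40 (SE), and neither passed in either source with the main scaling. The Pol I genes ranged from -0.66 for Polr1a to 0.00 for Polr1b in the table, with 0 of 4 passing.

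Cytosolic ribosomal proteins had a lower median between the tissues than the 36 genes, with no test of that difference. All 79 cytosolic ribosomal proteins were below 0 in both sources, with medians of -0.75 in the table and -0.85 in the scanner files, and 1 passed in the table by limma. Of the 127 other ribosome biogenesis genes 97 were below 0 in the table (median -0.36), with 3 higher and 15 lower by limma, where 8.92% and 14% of all genes were. S phase genes had a median of -0.44 and 3 passed, all lower. With the slide as a random block 1 of the 127 (higher), 0 cytosolic ribosomal proteins and 0 S phase genes passed. Erythroid markers summed to 9.39 and 10.12 in fetal liver and to between 3.43 and 8.53 on the bone marrow arrays of the table, but the scanner file of bone marrow WT replicate 1 gave 10.76, above both fetal liver arrays. S phase genes summed to 11.03 and 10.96 in fetal liver and to between 10.08 and 10.78 in bone marrow. Of the 7 hepatocyte markers tested 6 were at least 2-fold lower in bone marrow and passed by limma in the table (median -3.31, Alb -5.20), with Trf above 0, and 3 passed with the slide block. In bone marrow 2 or 3 of 8 hepatocyte markers were above background, against 7 and 4 in fetal liver WT and KO. The part of these markers in the tissue difference was not tested.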

How the data were processed

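Each sample's total RNA (10 ng, per the labels' protocols) was amplified with a Cy3 label for Agilent arrays of 1 colour. The scanner files deposited by the authors hold an intensity for each of 62976 spots, from Agilent Feature Extraction (version 10.7.1.1, as the submitters' processing notes give it), in which gProcessedSignal is the background-corrected intensity per the file headers. The authors also deposited a table with a linear ratio per probe. For 5 of the 6 arrays at least 99.984% of its values (ratio of at least 0.1) were the scanner signal divided by a constant near the array's 75th percentile, within 1%, and the exception, bone marrow WT replicate 1, had 1.40%. Column medians of the table were 0.0705 (WT) and 0.0709 (KO) in fetal liver, 0.057 and 0.056 in bone marrow pair 1 and 0.063 and 0.064 in pair 2. Its direction is that of the signal, genes were not centred, and the base is linear, but how that 1 column was made is unknown.

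Both sources were taken as log2 values minus the array's 75th percentile, which was 219 (WT) and 211 (KO) intensity units in fetal liver, 281 and 325 in bone marrow pair 1 and 737 and 743 in pair 2. Repeated spots were averaged without control spots and outliers. RefSeq accessions named 26762 of 55681 probes, for 20284 genes, and the probe with the highest mean scanner level stood for a gene. A gene entered a test if its probe was flagged well above background throughout at least 1 group. For the table column of bone marrow WT replicate 1 a level of -3.7 replaced the flags, and it matched 99.2% of them on the KO array of that slide. Tests used limma 3.58.1 (lmFit and eBayes) in R 4.3.3 with package data.table at version 1.17.8. Benjamini-Hochberg adjustment ran over all genes tested, with a threshold of 0.05. The bone marrow genotype test and the tissue test, both without the slide block, were tried on simulated data with no slide effect. The fits with the slide block and the interaction were not. The genotype test in bone marrow used 4 arrays, and those of tissue and interaction all 6. Fetal liver differences have no test. The slide was also fitted as a block. The replicate number is the slide: in bone marrow the deviations of same-numbered arrays correlated at 0.56 across genes in the table and 0.05 in the scanner files, over 2 pairs. The alternatives were other scalings, background corrections, filters, probe rules and leaving out each bone marrow array. Signal over background and the number of arrays limit the precision.

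The members and gene lists were chosen with earlier results of these data known. Values on every array are given for members that passed a test, the 2 members at each end of the fetal liver, bone marrow (value table) and tissue (scanner files) differences, and 7 members that represent the roles. Gnl3 was added after its values were seen.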

Additional observations from a re-analysis of the deposited data

Results flagged for a closer look

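For 2 members the KO difference had opposite signs in the tissues. Pes1 was -0.16 in fetal liver, 0.32 and 0.11 in the bone marrow pairs of the table and 1.13 in pair 1 of the scanner files. Its interaction of genotype and tissue was 0.37 in the table (unadjusted p = 0.455, adjusted p = 1 in limma, 2 arrays against 2 in bone marrow). Noc3l was 0.28 in fetal liver, -0.10 and -0.11 in the bone marrow pairs of the table and -0.63 in pair 1 of the scanner files, with an interaction of -0.39 (unadjusted p = 0.549, adjusted p = 1 in limma). A dimmer Pes1 probe had the fetal liver sign in both bone marrow pairs of the table. Neither interaction passed, and the fetal liver side is 1 array per genotype.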

How the results depend on the processing

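The medians of the KO difference kept their direction under every alternative run in fetal liver (-0.23 to -0.33) and in the bone marrow of the value table (-0.20 to -0.68). In the scanner files the bone marrow median ranged from -0.42 without bone marrow WT replicate 1 to 0.71 without WT replicate 2, and was -0.11 without KO replicate 1. With all 4 bone marrow arrays kept, 0 members and 0 of all genes were called there under every alternative. Counts of calls with an array left out are not given for the genotype test or the interaction, since 1 array would stand for a group. The count of tissue calls in the table was 4 of 36, where 22.9% of all genes were called. Scaled to array medians it was 2, where 1400 of the 13499 genes were called higher and 844 lower. It was 0 with the slide as a random replicate block, where 6.11% of all genes were called. With the filter on every array it was 11, with no filter 0, and 0 to 1 when a bone marrow array was left out. The shares over all genes in these last settings are not given here. The slide as a fixed replicate block changed no call of a member in bone marrow or in the interaction, where a random block could not be fitted and the fixed block was chosen after seeing the data. Values near 0 changed sign as follows. In the tissue comparison of the scanner files Ncl was 0.59 with quantile scaling, 0.19 with median scaling, 0.22 with normexp and 0.041 with the mean of its probes, and Npm1 was 0.39 with quantile scaling. In that of the table Npm1 was 0.64 with quantile scaling, 0.23 with median scaling and 0.008 with the mean of its probes. In bone marrow by the table Pes1 was -0.13 with the mean of its probes. With bone marrow arrays left out in turn, the bone marrow differences of the table ranged from -0.39 to 0.18 for Noc3l and from -0.16 to 0.17 for Rrn3. The tissue differences ranged from -0.23 to 0.30 for Ncl and from -0.91 to 0.12 for Polr1b in the scanner files, and from -0.044 to 0.12 for Polr1b and from -0.14 to 0.18 for Npm1 in the table. The cause of these changes was not tested. Normexp was run on median signals, since the files hold no mean signal, and this was chosen after seeing the data.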

Other observations

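Smaller groups of the pathway were also measured. The 11 other Pol I genes had medians of -0.26 in fetal liver, -0.18 in pair 1 of the table and -0.38 in pair 2, with all 11 below 0 in pair 2. The 11 snoRNP assembly factors, which load the core proteins onto guide RNAs, were all below 0 in fetal liver (median -0.36) and in pair 2 (median -0.51), and 9 of 11 in pair 1 of the table (median -0.19). All 13 genes of the RNA exosome and its partners, which trim rRNA precursors, were below 0 in bone marrow by the table, with a median of -0.29 and the most negative value, -0.85, for Exosc9. In fetal liver 10 of 13 were below 0, with a median of -0.21. In pair 1 of the scanner files these 3 groups went the other way, with medians of 0.28, 0.86 and 0.70.

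The MYC network as a whole did not share a direction. Of its 10 genes 5 were above 0 and 5 below 0 in fetal liver, with Myc the most negative (-1.32) and Mxd1, an antagonist of MYC, the most positive (0.83). In bone marrow, by the table, 5 of 9 were above 0, from -2.13 for Myc to 1.93 for Mycn, and 0 passed by limma without the slide block (background 0.876% of all genes). In the scanner files 8 of 9 were below 0 in bone marrow, with a median of -0.21. Between the tissues Mycl had the most negative difference in the table, -4.51, and the largest positive one was 1.21, for Mga.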
